A study of Homo sapiens with 12 samples.

Results

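All 12 RNA libraries of the study entered the comparison described here, 6 from cells given siRNAs against TUNAR (siTUNAR) and 6 from cells given a negative control siRNA (Neg siRNA). The cells were EndoC-βH1, a line of human beta cells derived from fetal pancreas, used as 1 line at passage 74 (replicates 1 and 2) and passage 75 (replicate 3). They were transfected with a lipid reagent and, 2 days later, received either DMSO at 1:1000 or 1-AKP, an inhibitor of the kinase GSK3, at 5 µM for 24 hours. Of the 6 libraries of each siRNA, 3 were treated with DMSO and 3 with 1-AKP. Each siTUNAR library was paired with the Neg siRNA library of the same treatment and replicate number, which gave 6 pairs, and the siRNA effect was averaged over both treatments. The pairs follow the labels and no measured value, but pairing was chosen with earlier results of these data known. The study describes 1 control siRNA and 1 set of TUNAR siRNAs, so the loss of TUNAR and any other action of these siRNAs cannot be told apart. Nothing states that replicates were separate cultures, so a p-value here covers the spread among these libraries, which may be technical.

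TUNAR was described as a conserved RNA of pluripotent cells and the neural lineage. Its transcript also encodes a small peptide of the endoplasmic reticulum that binds the calcium pump SERCA, and RefSeq now lists the gene as protein coding. RNA sequencing measures the transcript and not the peptide. In beta cells, calcium entry and its release from internal stores drive the fusion of insulin granules with the plasma membrane.

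TUNAR siRNAs moved many genes by small amounts and few genes by large ones. With the 6 pairs as blocks, edgeR's quasi-likelihood test called 1531 of 15990 genes at a Benjamini-Hochberg adjusted p of 0.05, which is 9.57% of the genes tested. Of these, 799 rose (5.00% of genes tested) and 732 fell (4.58%). The median size of the called changes was 0.15 on the log2 scale, and 37 risen and 27 fallen genes moved by more than 0.5. Of all genes tested, 2152 (13.5%) had the same sign in all 6 pairs, 1065 upwards and 1087 downwards. Of the called genes, 1194 (78.0% of them and 7.47% of genes tested) had the same sign in all 6 pairs, 608 higher and 586 lower. The paired test works on these same 6 differences, so a high share among called genes is built in.

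**Figure D1:**
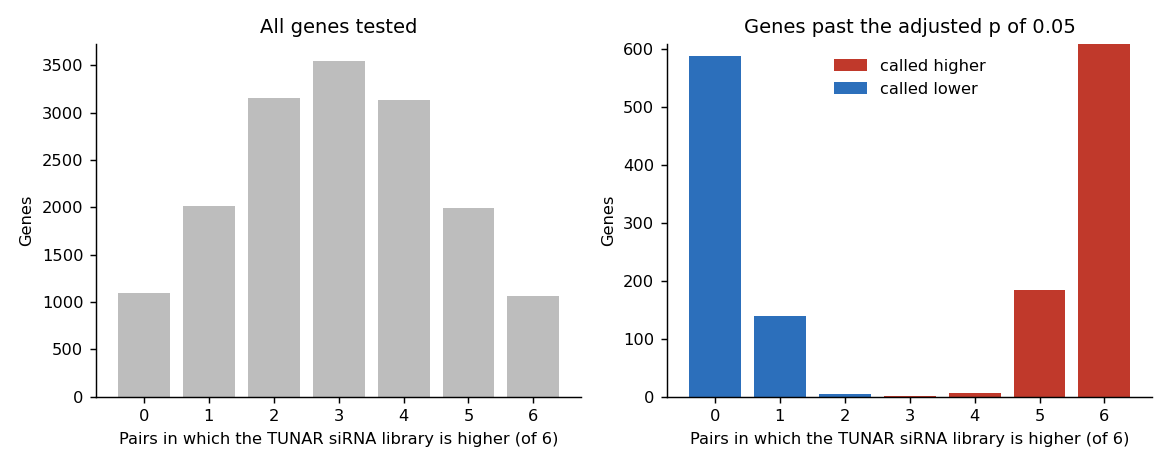
Number of genes (vertical axis) by the number of pairs, out of 6, in which the siTUNAR library was higher (horizontal axis), for all genes tested on the left and for genes past the adjusted p of 0.05 on the right. Among genes tested the count is highest at 3 pairs (3547 genes), whereas called genes stand at the ends, with 608 risen genes higher in 6 pairs and 588 fallen genes higher in 0 pairs, ties included. The calls were made from these same 6 differences, which by itself puts called genes toward the ends.

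How many genes are called rests on the pairing. Without the pair blocks, 28 genes passed (0.175% of those tested), 8 up and 20 down, and all 28 were also called with the blocks and had the same sign in all 6 pairs. Over 11131 genes, the pair differences of the same replicate number correlated across the treatments at 0.472, 0.395 and 0.267 for numbers 1, 2 and 3, while other combinations of pairs correlated at 0.132 to 0.340. These are correlations across genes, which are not independent replicates. When DMSO and 1-AKP counts were summed to give 3 pairs, 1039 genes passed, 550 up and 489 down. The count was 1047 without replicate 1, 855 without replicate 2 and 1120 in passage 74 alone. Passage 75 holds 1 pair per treatment and was not fitted on its own. Replicate 1 stood apart from 2 and 3, although 1 and 2 share passage 74. Between the Neg siRNA DMSO libraries, chi-square per degree of freedom was 7.35 for 1 and 2, 8.85 for 1 and 3, and 2.57 for 2 and 3. The other groups showed the same order.

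The libraries held between 15653786 and 15986834 expected counts each. Levels are given as CPM, counts scaled to library size with TMM factors, and changes as log2 fold changes of siTUNAR over Neg siRNA. Beta-cell markers were present: INS, the insulin gene, averaged 10711 CPM with Neg siRNA and 11261 CPM with siTUNAR. The summed level of duct and acinar markers (10 of 14 in the files, mostly KRT19) ran from 74.6 to 91.2 CPM with Neg siRNA and from 77.3 to 99.8 CPM with siTUNAR and was higher in 6 of 6 pairs. That of blood cell markers (6 of 10, mostly CD68) ran from 46.5 to 69.8 and from 40.5 to 57.6 CPM and was higher in 0 of 6 pairs. That of other islet cells (11 of 12, mostly TTR) ran from 1327 to 1792 and from 1254 to 1659 CPM and was also higher in 0 of 6 pairs. Endothelial markers stayed between 6.43 and 8.80 CPM and fibroblast markers between 6.56 and 12.7 CPM, and CD3E, HBB, HBA1 and PLVAP have no entry in any library. The part of these markers in the results below was not tested.

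TUNAR itself fell in every pair. In the DMSO pairs it stood at 14.4, 19.9 and 17.7 CPM with Neg siRNA and at 3.83, 7.20 and 8.09 CPM with siTUNAR, in replicates 1, 2 and 3. In the 1-AKP pairs the levels were 27.9, 31.0 and 30.8 CPM against 6.95, 10.5 and 13.6 CPM. The highest siTUNAR library lay below the lowest Neg siRNA library, so the groups did not overlap, and each 1-AKP library lay above its DMSO counterpart for both siRNAs. The averaged log2 fold change was -1.51 (SE 0.112, adjusted p = 3.18e-05, lower in 6 of 6 pairs), and the exact two-sided sign-flip permutation test over the 6 pair differences gave p = 0.03125, the smallest that 6 pairs allow. The difference was -1.88, -1.45 and -1.11 in the DMSO pairs and -1.99, -1.56 and -1.17 in the 1-AKP pairs. It followed the replicate number in both treatments, so the 6 pairs may not be independent, as the permutation test takes them to be. Any gene with the same sign in all 6 pairs would get p = 0.03125 in that permutation test. The fitted difference between treatments was -0.09 (SE 0.265). With 3 pairs the adjusted p was 0.05, just inside the threshold, and without pairing it was 0.0101.

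Separation of all 6 siTUNAR libraries from all 6 Neg siRNA libraries was seen in 116 genes (0.725% of those tested), 109 of them called. B4GALT4, a Golgi enzyme that adds galactose to glycans, stood at 84.8, 82.5 and 77.6 CPM with Neg siRNA in DMSO and at 51.7, 56.6 and 60.2 CPM with siTUNAR. In 1-AKP it stood at 81.0, 79.4 and 73.0 against 53.6, 56.6 and 56.4 CPM. The groups did not overlap, and the fold change was -0.51 (SE 0.0372, adjusted p = 8.97e-10, lower in 6 of 6 pairs). SYPL1, a vesicle membrane protein of the synaptophysin family, stood at 109, 107 and 100.3 CPM against 62.5, 74.4 and 75.1 CPM in DMSO, and at 113, 106 and 105 against 76.3, 70.4 and 82.4 CPM in 1-AKP. It fell by 0.54 (SE 0.0506, adjusted p = 0.000116, lower in 6 of 6 pairs), again without overlap. SYP, synaptophysin itself, rose by 0.06 (adjusted p = 0.0326, higher in 6 of 6 pairs), a call that ended without replicate 2 (0.276) or replicate 3 (0.108), and the other 4 tested family members were not called. TUNAR, B4GALT4, SYPL1, the ferlin family gene FER1L5 and PGD were the 5 of 102 genes named by rule whose call held in every setting that gave them an adjusted p, including the one without pairing, and DESeq2 gave none for FER1L5.

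**Figure D2:**
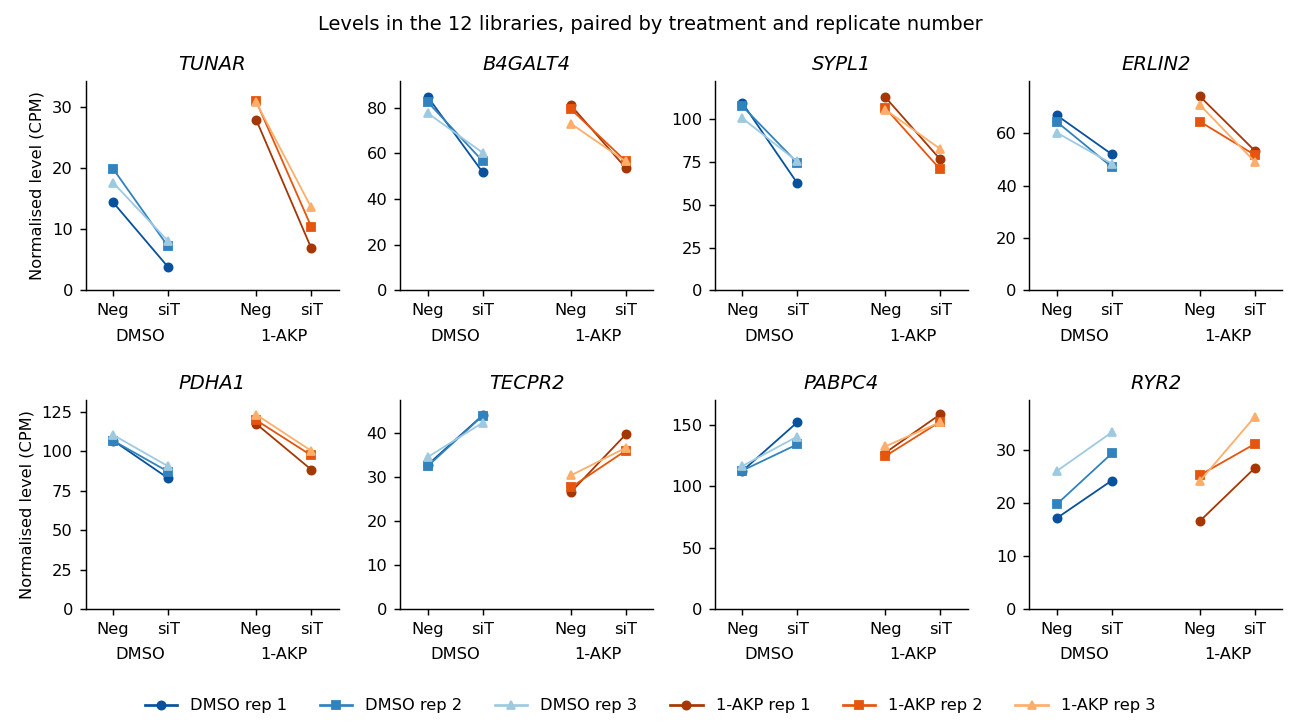
Normalised level in CPM (vertical axis, from 0) of 8 genes in the 12 libraries, with each Neg siRNA library (Neg) joined to the siTUNAR library (siT) of the same treatment and replicate number. All 6 lines fall for TUNAR, B4GALT4, SYPL1, ERLIN2 and PDHA1 and all 6 rise for TECPR2, PABPC4 and RYR2, and of these 8 genes RYR2 alone overlaps between the siRNAs.

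Among the 28 genes that passed without pairing, those outside the naming rule were picked after their values were seen. ERLIN2, an endoplasmic reticulum protein that takes part in the breakdown of inositol trisphosphate receptors, stood at 66.8, 64.3 and 60.2 CPM against 51.9, 47.1 and 48.3 CPM in DMSO and at 74.0, 64.4 and 70.7 against 53.2, 51.6 and 49.0 CPM in 1-AKP (-0.41, SE 0.0334, adjusted p = 1.18e-10). PDHA1, the E1 alpha subunit of pyruvate dehydrogenase, which links glycolysis to the citric acid cycle, went from 107, 107 and 110.3 to 82.9, 87.0 and 90.4 CPM in DMSO and from 117, 119.7 and 123.2 to 88.4, 97.4 and 100.3 CPM in 1-AKP (-0.32, SE 0.0262, adjusted p = 1.18e-10). Both genes were lower in 6 of 6 pairs with no overlap. TECPR2, a protein of autophagy and of export from the endoplasmic reticulum, rose from between 26.5 and 34.4 CPM to between 35.9 and 43.9 CPM (0.40, SE 0.0417, adjusted p = 1.68e-08). PABPC4, a cytoplasmic poly(A)-binding protein, rose from between 112 and 133 CPM to between 134 and 159 CPM (0.30, SE 0.0262, adjusted p = 6.84e-10). Both rose in 6 of 6 pairs without overlap, and the calls of all 4 genes held when any 1 replicate number was left out. PDHA1, TECPR2, B4GALT4, ERLIN2 and PABPC4 overlap an exon on the opposite strand in GENCODE, and as no strand marking is stated for the libraries, reads of such partners cannot be told apart. The others included MGAT4A, a Golgi enzyme that branches N-glycans (-0.28), AK3, a mitochondrial adenylate kinase (-0.31), PPP1R15B, a phosphatase subunit acting on the translation factor eIF2 (-0.20), NR2F2, a nuclear receptor (-0.44), and, among those that rose, the surface proteoglycan SDC2 (0.22), the MAP kinase phosphatase DUSP4 (0.38) and the adhesion molecule ALCAM (0.24). Of the 28, DESI2 and SDF4 lost their paired call without replicate 2, at adjusted p = 0.181 and 0.0891.

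Regulators of inhibitory G proteins were among the called rises, and RGS9 and RGS7BP were among the 14 risen genes named for the size of their change. RGS6 and RGS9 are R7-family proteins that speed the switching off of these G proteins, and RGS7BP and GPR179 anchor R7 proteins to membranes. RGS9 stood at 2.94, 3.92 and 3.13 CPM with Neg siRNA and 5.47, 5.26 and 5.20 CPM with siTUNAR in DMSO, and at 1.14, 0.820 and 1.02 against 2.70, 2.15 and 1.27 CPM in 1-AKP. The siTUNAR library was the higher in all 6 pairs, but the DMSO control libraries lay above the 1-AKP siTUNAR libraries, and the fold change was 0.79 (SE 0.145, adjusted p = 0.00027). RGS6 rose from 0.702 to 2.10 CPM on average (1.58, SE 0.218, adjusted p = 3.31e-06), RGS7BP from 1.64 to 2.65 CPM (0.68, adjusted p = 0.00352) and GPR179 from 12.3 to 17.0 CPM (0.46, adjusted p = 2.24e-06), each in 6 of 6 pairs. The mean log2 CPM of RGS6 was 0.607, under the level of 1 required for naming by size, so its fold change rests on few reads. RGS6, RGS9, RGS7BP and GPR179 were the 4 called members among the 9 tested of that module, and 0 fell. Its median change was 0.08 against 0.00 over all genes, of which 5.00% rose. The module was listed with earlier results of these data known, so its share of called members is no test of it. RGS7, GNB5, RGS11, RGS9BP and GPR158 stood at 0.07, 0.08, -0.31, -0.36 and -0.06, with adjusted p from 0.186 to 0.654. The 4 calls held without any 1 replicate number. Of 10 tested RGS proteins of other families edgeR called 0, at a median change of 0.02.

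GPR119, a lipid-sensing receptor, rose from 3.34 to 5.22 CPM (0.64, SE 0.106, adjusted p = 5.9e-05), with pair differences between 0.46 and 0.73. ST3GAL5, the sialyltransferase that makes the ganglioside GM3, went from 8.06, 13.4 and 11.2 to 13.1, 19.03 and 16.5 CPM in DMSO and from 8.85, 13.7 and 15.6 to 17.2, 21.1 and 21.8 CPM in 1-AKP (0.62, SE 0.0615, adjusted p = 6.24e-09). It was higher in 6 of 6 pairs, while the groups overlapped. BAALC rose by 0.58 with no overlap between the siRNAs (2.75 to 3.69 CPM against 4.07 to 5.96 CPM, adjusted p = 0.000401, higher in 6 of 6 pairs). ITGBL1, an integrin beta-like protein, rose by 0.75, LRRC4B, a synaptic adhesion molecule, by 0.54 and ADGRG1, an adhesion receptor, by 0.56, in 6 of 6 pairs each, with adjusted p = 0.000652, 0.000302 and 0.00265. The call of ADGRG1 ended without replicate 2 (adjusted p = 0.0713). So did those of CSGALNACT1, a chondroitin sulfate enzyme (0.54, 0.168, and 0.051 without replicate 1), and of BCYRN1 (0.61, 0.108, and 0.0953 without replicate 3), a noncoding RNA with near copies in the genome that can share its reads. Those of RNF152, a lysosomal ubiquitin ligase (0.68), and the T-box factor TBX2 (0.60) ended without replicate 1, at adjusted p = 0.0528 and 0.178, and that of TBX2 also without replicate 3 (0.139).

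**Figure D3:**
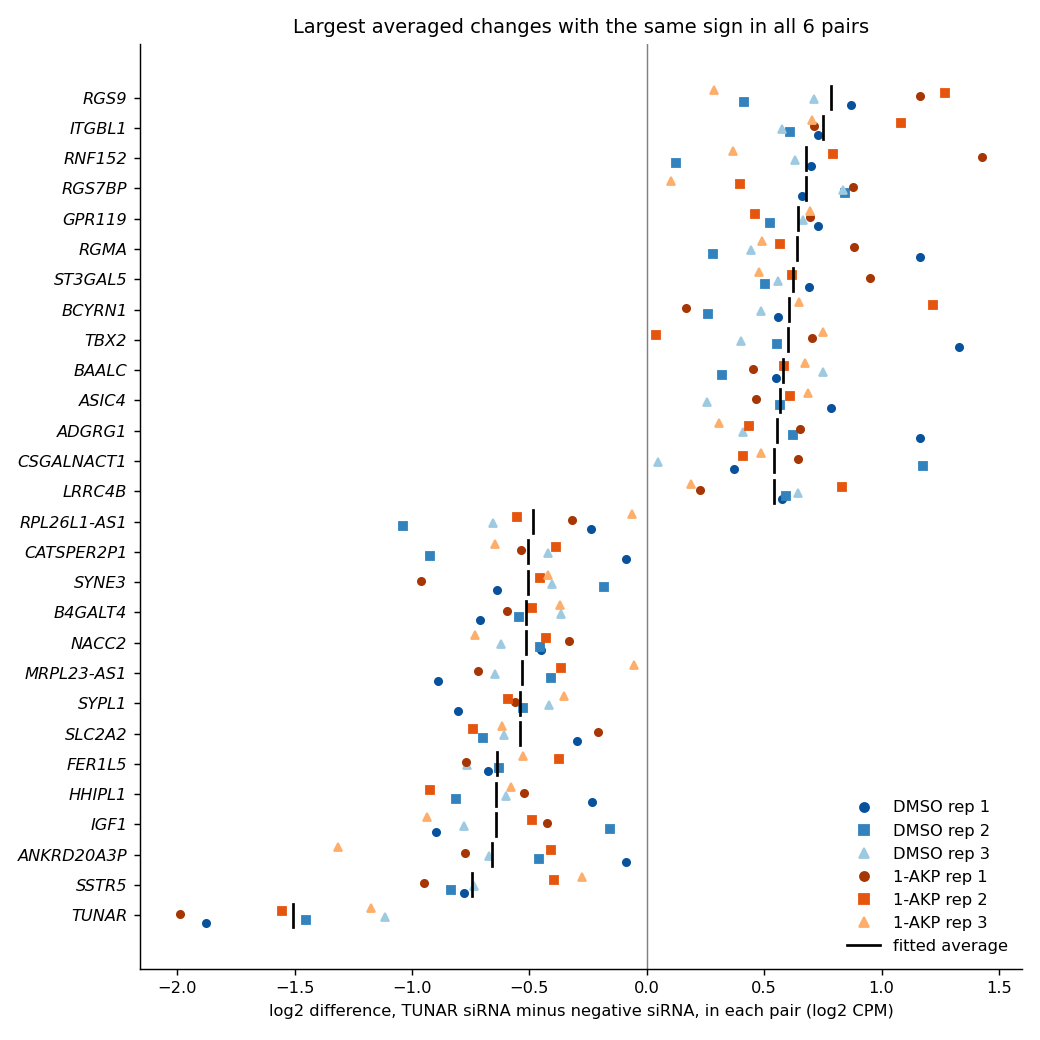
Log2 difference of CPM, siTUNAR minus Neg siRNA (horizontal axis), in each of the 6 pairs for the 14 risen and 14 fallen genes named for the size of their averaged change, with the fitted average as a black bar. Every point of a gene lies on 1 side of 0, as the naming rule requires, and TUNAR has the lowest average at -1.51.

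Among the large falls after TUNAR was SSTR5, a somatostatin receptor that couples to inhibitory G proteins. It stood at 9.24, 6.91 and 5.20 CPM against 5.34, 3.82 and 3.07 CPM in DMSO, and at 6.45, 2.46 and 2.10 against 3.28, 1.84 and 1.71 CPM in 1-AKP (-0.74, SE 0.112, adjusted p = 1.39e-05). Each siTUNAR library lay below its own partner, while the groups overlapped. FER1L5 fell from between 4.90 and 7.01 CPM to between 3.36 and 4.69 CPM without overlap (-0.64, SE 0.0989, adjusted p = 2.1e-05). IGF1, the insulin-like growth factor, fell by 0.64 without overlap (adjusted p = 0.00577), a call that ended without replicate 3 (0.128). HHIPL1 fell by 0.64 and SYNE3, a nuclear envelope protein, by 0.51, in 6 of 6 pairs each, with adjusted p = 0.000444 and 0.000311. SLC2A2, the glucose transporter GLUT2, fell from 3.35 to 2.31 CPM (-0.54, adjusted p = 0.00749, lower in 6 of 6 pairs), a call that ended without replicate 2 (0.126) or replicate 3 (0.0742). The pseudogenes ANKRD20A3P (-0.66) and CATSPER2P1 (-0.51) and the antisense RNA MRPL23-AS1 (-0.53) are uncertain, because near copies or opposite-strand genes can share their reads. Of these and RPL26L1-AS1 (-0.48), the call of MRPL23-AS1 alone held without any 1 replicate number.

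Gene lists are described next by their counts, and members beyond those the naming rule takes were picked after their values were seen. Over all genes tested, 5.00% rose and 4.58% fell, and each list count is to be read beside these shares. Of the 11131 genes whose mean log2 CPM reached 3, 1401 were called, against 1531 of all 15990. The part of expression level in the list counts was not tested, and the lists were chosen with earlier results of these data known. Of 16 tested genes of calcium handling in the endoplasmic reticulum, 5 rose and 2 fell, at a median of 0.01 against 0.00 over all genes. RYR2, a calcium release channel, stood at 17.1, 19.7 and 26.0 CPM with Neg siRNA and at 24.2, 29.3 and 33.3 CPM with siTUNAR in DMSO, and at 16.6, 25.2 and 24.1 against 26.6, 31.1 and 36.2 CPM in 1-AKP. The siTUNAR library was higher in every pair, with overlap between the groups, and the fold change was 0.49 (SE 0.0493, adjusted p = 7.59e-09). CALR, a luminal calcium-binding chaperone, fell from 1178 to 1069 CPM on average (-0.14, SE 0.0184, adjusted p = 2.13e-06, lower in 6 of 6 pairs), and its membrane relative CANX rose by 0.09 (adjusted p = 0.000577, higher in 6 of 6). CALR has an exon overlap on the opposite strand. ITPR2 (0.11) and ITPR3 (0.07), which are inositol trisphosphate receptors, and SARAF (0.07) rose, and the channel subunit ORAI3 (-0.19) fell. These 4 calls each ended without at least 1 replicate number, while those of RYR2, CALR and CANX held, and 3, 3 and 2 members rose without replicates 1, 2 and 3. The SERCA pump genes ATP2A2 and ATP2A3 stood at 0.03 (adjusted p = 0.383) and -0.03 (0.454).

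Of 26 tested genes of the unfolded protein response, 7 rose (26.9%) and 3 fell (11.5%), against 5.00% and 4.58% of all genes. The list median was 0.05, and the risen members were mostly folding enzymes and chaperones. PDIA4, a protein disulfide isomerase, stood at 278, 289.6 and 290.4 CPM against 326, 313 and 314 CPM in DMSO and at 314, 333 and 345 against 364, 360.3 and 368 CPM in 1-AKP (0.15, SE 0.0207, adjusted p = 5.08e-06). HSPA5, the main chaperone of that compartment, rose by 0.13 (adjusted p = 4.68e-05), MANF by 0.18 (0.000632) and PDIA3 by 0.13 (2.89e-06), each in 6 of 6 pairs, and these 4 calls held without any 1 replicate number. PDIA3 overlaps the falling pseudogene CATSPER2P1 on the opposite strand. The transcription factor ATF4 (-0.08) and the pseudokinase TRIB3 (-0.13) fell with CALR, and their calls ended without replicate 2 (adjusted p = 0.0778 and 0.0581), that of ATF4 also without replicate 3 (0.123). Without replicates 1, 2 and 3 the list gave 5, 7 and 7 risen and 4, 1 and 3 fallen members.

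Beta-cell identity genes were called in both directions. Of 21 tested transcription factors 2 rose (9.52%) and 3 fell (14.3%), against 5.00% and 4.58% of all genes. The list median was 0.01, and without replicate 2 the counts were 0 and 4. PDX1, a master factor of pancreas and beta cells, stood at 322, 337 and 343 CPM against 293, 305 and 310.1 CPM in DMSO, and at 292, 313 and 319 against 256, 293 and 284 CPM in 1-AKP (-0.14, SE 0.0194, adjusted p = 2.1e-06). NKX6-1 fell from 108 to 93.6 CPM (-0.20, SE 0.0297, adjusted p = 1.31e-05). Both were lower in 6 of 6 pairs, and their calls held without any 1 replicate number. MAFA, a factor of mature beta cells, fell by 0.13 (adjusted p = 0.008) in 5 of 6 pairs. Its call ended without at least 1 replicate number, as did that of ST18, which rose (0.13; adjusted p = 0.219 without replicate 2). NEUROD1, PAX6, ISL1 and NKX2-2 were not called.

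Of 40 tested genes of the insulin granule and its secretion, 8 rose (20%) and 6 fell (15%), against 5.00% and 4.58% of all genes, at a median of 0.02. Without replicate 2 the counts were 3 and 3, with 3 summed pairs 3 and 6, and with limma on log2 FPKM 3 and 5. IAPP, the amyloid peptide released with insulin, stood at 136, 94.6 and 106 CPM with Neg siRNA and at 104, 75.5 and 81.9 CPM with siTUNAR in DMSO, and at 84.5, 53.7 and 54.4 against 60.9, 42.3 and 47.3 CPM in 1-AKP. Every siTUNAR library lay below its partner, with pair differences from -0.47 to -0.20, while the groups overlapped (-0.36, SE 0.0304, adjusted p = 3.08e-10, against 0.527 without pairing). The granule protein CHGB (-0.12, adjusted p = 1.39e-05) and PCSK1, a prohormone convertase (-0.08, 0.000806), fell in 6 of 6 pairs. SYT4, a vesicle synaptotagmin (0.15, 0.000172), and CACNA1C, a calcium channel subunit (0.16, 0.000594), rose in 6 of 6. INS rose by 0.07 (adjusted p = 0.0127, higher in 5 of 6 pairs), a call that ended without replicate 2 (0.323) or replicate 3 (0.154). The zinc transporter SLC30A8 (0.22, adjusted p = 0.054) and the incretin receptor GLP1R (0.32, 0.0951) were higher in 6 of 6 pairs without passing.

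Of 25 tested neuronal genes 8 rose (32%, against 5.00% of all genes) and 0 fell, at a median of 0.07. DCX, a microtubule protein of young neurons, stood at 152, 181 and 168 CPM against 183, 212 and 196 CPM in DMSO and at 119.8, 129 and 129 against 148, 151 and 141 CPM in 1-AKP (0.23, SE 0.0238, adjusted p = 1.27e-08). STMN2, which binds tubulin in growing axons (0.19, 7.67e-08), the adhesion molecule CNTN1 (0.15, 5.32e-06) and the transcription factor SOX11 (0.18, 0.000134) also rose in 6 of 6 pairs. These 4 calls held without any 1 replicate number, while those of SOX4, SYP and KIF5C ended without at least 1, and 5 members rose whichever number was left out. The neuronal tubulin TUBB3 and the cytoskeletal genes MAP2 and INA were not called.

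Of 27 tested axon guidance genes 9 rose (33.3%) and 2 fell (7.41%), against 5.00% and 4.58% of all genes, at a median of 0.10. RGMA, a repulsive guidance protein, rose from 3.16 to 4.91 CPM (0.64, SE 0.121, adjusted p = 0.000334). NEO1, its receptor neogenin, stood at 274, 298 and 295 CPM against 327, 347 and 314 CPM in DMSO and at 255, 260.3 and 261 against 315, 309.5 and 281 CPM in 1-AKP (0.20, SE 0.0245, adjusted p = 2.57e-06). ROBO1, a Slit receptor (0.13, adjusted p = 4.96e-06), PLXND1, a semaphorin receptor (0.25, 2.59e-05), and SEMA5A, a semaphorin (0.19, 0.000316), rose in 6 of 6 pairs as RGMA and NEO1 did, and these 5 calls held without any 1 replicate number. Without replicate 1, 2 or 3 the list gave 9, 7 or 6 risen members and 0, 0 or 1 fallen.

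Of 21 potassium and sodium channel genes 7 rose (33.3%) and 1 fell (4.76%), against 5.00% and 4.58% of all genes, at a median of 0.08. ASIC4, a relative of acid-sensing channels, rose from 4.61 to 6.81 CPM (0.57, SE 0.0955, adjusted p = 7.74e-05) and KCNN3, a calcium-activated potassium channel, from 5.27 to 7.06 CPM (0.42, SE 0.0891, adjusted p = 0.0014), both in 6 of 6 pairs and in calls that held without any 1 replicate number. SCN3A, a sodium channel, rose by 0.43 in 6 of 6 pairs, a call that ended without replicate 3 (adjusted p = 0.095). Of the channel list 3 rose without replicate 2, and limma on log2 FPKM called 1.

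Of 10 Golgi galactosyltransferases 3 fell (30%, against 4.58% of all genes) and 0 rose, at a median of -0.07. Beside B4GALT4, the falls of B3GALNT1 (-0.16) and B4GALT6 (-0.12) were lost whichever replicate number was left out, at adjusted p from 0.0629 to 0.27. Among 16 enzymes of heparan and chondroitin sulfate, 3 rose and 3 fell (18.8% each, against 5.00% and 4.58% of all genes). Without replicate 2 the counts were 1 and 2. The sulfatases SULF1 and SULF2, which trim heparan sulfate outside the cell, rose by 0.40 (adjusted p = 2.57e-06) and 0.39 (0.000251), and the sulfotransferase HS2ST1 fell by 0.13 without overlap (0.000519), each in 6 of 6 pairs. The call of SULF2 ended without replicate 2 (0.069).

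Of 22 integrin and matrix genes 4 rose (18.2%) and 3 fell (13.6%), against 5.00% and 4.58% of all genes. COL4A2, a basement membrane collagen, stood at 115, 92.0 and 84.6 CPM against 90.8, 78.1 and 72.6 CPM in DMSO and at 118, 102 and 89.3 against 88.8, 79.2 and 73.5 CPM in 1-AKP (-0.31, SE 0.0287, adjusted p = 1.39e-09). The laminin LAMA5 fell by 0.30 (adjusted p = 1.36e-07), whereas fibronectin, FN1, rose by 0.46 (3.78e-05) and the integrin ITGB1 by 0.15 (1.89e-06), each in 6 of 6 pairs and in calls that held without any 1 replicate number. COL4A2 and LAMA5 overlap exons on the opposite strand. The call of FN1 ended when treatment and number were fitted as separate terms in place of the 6 pairs (adjusted p = 0.14).

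Glycolysis and hypoxia genes were called lower only. Of 22 tested, 10 fell (45.45%, against 4.58% of all genes) and 0 rose, at a median of -0.07. In fits without replicates 1, 2 and 3 the fallen numbered 5, 5 and 6. GAPDH fell from 1804 to 1699 CPM on average (-0.09, SE 0.0158, adjusted p = 0.000189), LDHA, lactate dehydrogenase A, by 0.26 (0.00983) and the angiogenic factor VEGFA by 0.09 (0.000652), each in 6 of 6 pairs. The lactate exporter SLC16A3 fell by 0.26 (0.00414), a call that ended without replicate 1 (0.209). GAPDH has near copies elsewhere in the genome, which makes its level less certain. PGD, 6-phosphogluconate dehydrogenase of the pentose phosphate pathway, stood at 238, 240.0 and 243 CPM against 204, 206 and 213 CPM in DMSO and at 278, 264 and 282 against 221, 241 and 242 CPM in 1-AKP (-0.22, SE 0.0222, adjusted p = 8.75e-09, lower in 6 of 6 pairs). It was 1 of 4 fallen (28.6%, against 4.58% of all genes), with 0 risen, among 14 targets of the oxidative stress factor NRF2. The fallen also included NQO1 (-0.18) and AKR1C1 (-0.41). The call of NQO1 ended without replicate 2 (adjusted p = 0.116), and AKR1C1 belongs to a family of near-identical genes that can share reads.

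Of 24 cholesterol synthesis genes 6 rose (25%) and 2 fell (8.33%), against 5.00% and 4.58% of all genes. SQLE stood at 0.11 (adjusted p = 0.001), INSIG1 at 0.09 (0.00183) and MSMO1 at -0.12 (6.25e-05). Without replicate 1 only 2 members rose, and INSIG1 lost its call (0.0725). Of 25 genes of oxidative phosphorylation 1 was called, SDHC, a subunit of succinate dehydrogenase (-0.13, adjusted p = 0.000652, no overlap). That count (4%) is near the 4.58% of all genes that fell. Of 11 fatty acid genes 2 rose (18.2%, against 5.00% of all genes) and 0 fell, ACACA (0.08) and SREBF1 (0.07), each in 5 of 6 pairs. Leaving out any 1 replicate number gave 1 risen member, with 1 fallen without replicate 1. With 3 summed pairs or with limma on log2 FPKM 0 rose. Of 21 lysosomal genes 3 fell (14.3%, against 4.58% of all genes) and 0 rose. The fallen included CD68 (-0.46, adjusted p = 6.24e-09) and GLB1 (-0.08, 0.0267), the latter lost without replicate 1 or 3 (0.111 and 0.216).

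Of 28 genes of mitosis 5 rose (17.9%, against 5.00% of all genes) and 0 fell (3 and 0 without replicate 3), at a median of 0.03. The risen included the proliferation marker MKI67, which went from 236 to 261 CPM (0.14, SE 0.0202, adjusted p = 4.21e-06, higher in 6 of 6 pairs). TOP2A, a topoisomerase, rose by 0.09 (0.00172, 6 of 6 pairs), and BUB1B (0.11) and CENPF (0.08) lost their calls without at least 1 replicate number. Of 28 genes of S phase 2 fell and 0 rose, where 4.58% and 5.00% of all genes did, so the count is near that of all genes. They were UHRF1, a factor of DNA methylation maintenance (-0.30, SE 0.0369, adjusted p = 1.08e-05), and cyclin E1, CCNE1 (-0.22, 0.00127), both in 6 of 6 pairs and in calls that held without any 1 replicate number. The p53 target SESN2 (0.10) and the Polycomb gene PHC1 (0.12) were the called members of their lists of 14 and 18, counts near the 5.00% of all genes that rose. Both calls ended without replicate 1 (adjusted p = 0.0564 and 0.0934), and that of SESN2 also without replicate 2 (0.21).

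GSK3 is the kinase that 1-AKP inhibits, and it marks beta-catenin, the effector of Wnt signals, for breakdown. Of 16 genes of the GSK3 and beta-catenin complex 1 rose, a count near the 5.00% of all genes. It was TNKS2 (0.10, in 5 of 6 pairs, adjusted p = 0.165 without replicate 1 and 0.102 without replicate 3), while GSK3A, GSK3B, CTNNB1 and APC were not called, at 0.00, 0.06, 0.03 and -0.01. Of 23 Wnt ligands, receptors and antagonists 1 rose, a count near the 5.00% of all genes, and 3 fell (13.0%, against 4.58%). The list median was 0.02. DKK3, a member of the Dickkopf family, rose from 22.9 to 28.9 CPM (0.34, SE 0.0457, adjusted p = 2.46e-06), and the receptor ROR2 fell from 82.6 to 73.4 CPM (-0.17, SE 0.0295, adjusted p = 0.000124), both in 6 of 6 pairs and in calls that held without any 1 replicate number. The falls of WNT5B (-0.24) and LRP5 (-0.15) ended without replicate 1 (0.135 and 0.252), that of WNT5B also without replicate 3 (0.106) and that of LRP5 also without replicate 2 (0.117). Of 13 beta-catenin targets, ID2 rose (0.15, adjusted p = 0.000652) and VEGFA fell, and AXIN2 was at 0.03 (0.892). Each direction held 7.69% of that list, against 5.00% risen and 4.58% fallen of all genes.

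**Figure D4:**
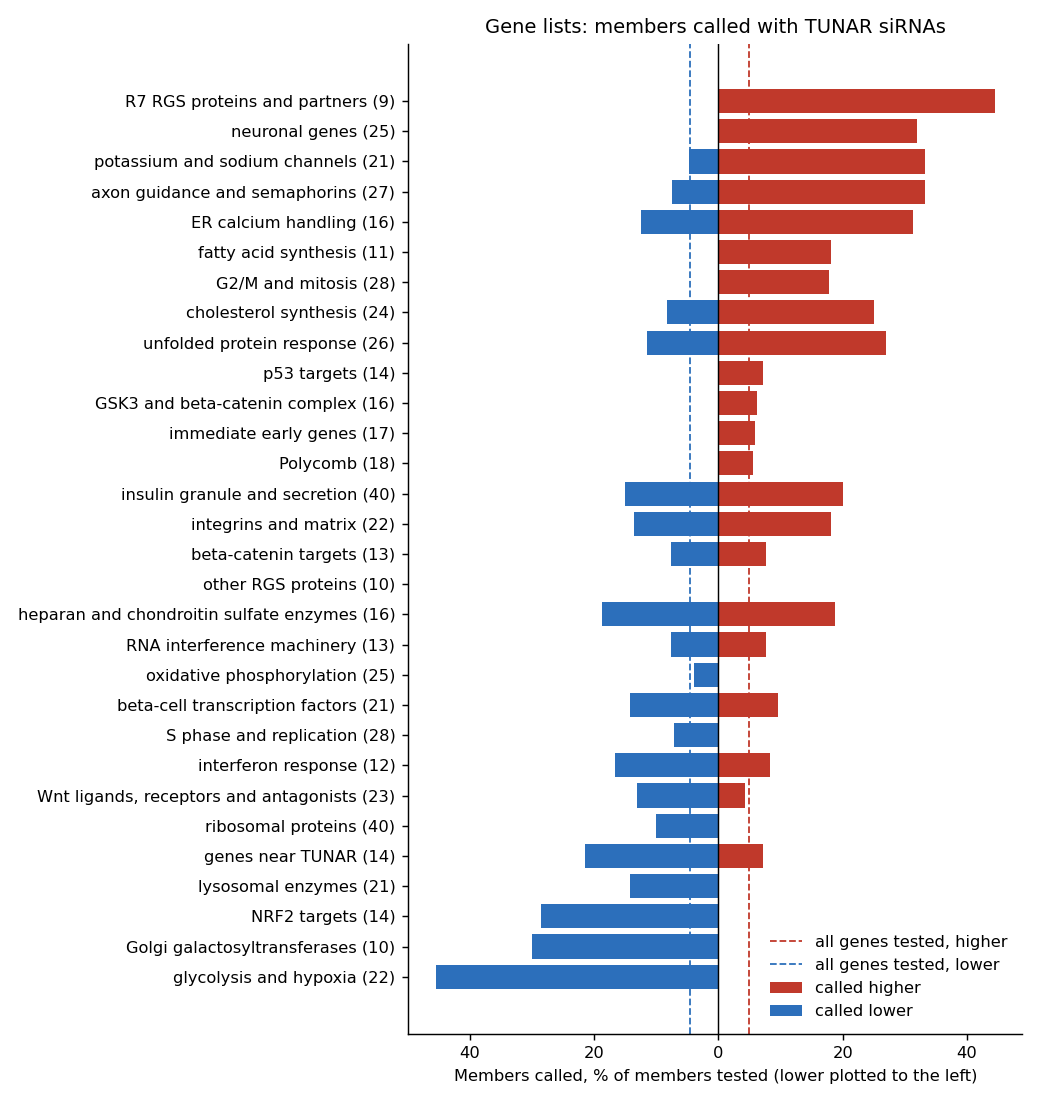
Share of the tested members of each gene list (number tested in brackets) that were called higher (to the right) or lower (to the left) with siTUNAR, for lists with at least 8 tested genes. Dashed lines mark all genes tested (5.00% higher, 4.58% lower), and the bars reach furthest to the right for the R7 RGS module (4 of 9) and to the left for glycolysis (10 of 22). The lists were chosen with earlier results of these data known, so a bar beyond a dashed line is no test of its list. The dashed lines include genes of low level. Of the 11131 genes whose mean log2 CPM reached 3, 1401 were called.

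Of 14 tested genes at and near TUNAR on chromosome 14, TUNAR counted, SYNE3 and DICER1 fell with TUNAR and ATG2B rose, at a list median of 0.01. The rise of ATG2B was not seen in all 6 pairs, and its call ended without replicate 2 or replicate 3. DICER1, the nuclease that processes small RNA precursors, fell by 0.10 (adjusted p = 0.00413, lower in 6 of 6 pairs), a call that ended without replicate 2 (0.252). AGO1, an Argonaute protein, rose by 0.11 in 5 of 6 pairs, and the other 11 tested genes of the RNA interference machinery were not called. Of 12 interferon response genes 1 rose (8.33%) and 2 fell (16.7%), against 5.00% and 4.58% of all genes. The calls of the fallen MX2 (-0.20) and OAS3 (-0.13) ended without at least 1 replicate number. Of 17 immediate early genes JUND alone was called (0.11, in 5 of 6 pairs, adjusted p = 0.397 without replicate 2). That count (5.88%) is near the 5.00% of all genes that rose.

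Among markers of other cell types, DPP4 (-0.15, adjusted p = 6.85e-05) and TTR (-0.08, 0.000528) fell among 6 tested genes of other islet cells, KRT19 rose (0.18, 0.000268) among 5 of duct and acinar cells, and CD68, which overlaps an opposite-strand exon, fell among 4 of blood cells, each in 6 of 6 pairs. Of 40 ribosomal protein genes 4 fell (10%, against 4.58% of all genes) and 0 rose, at a median of -0.03. With the trend on gene length removed 0 fell and 1 rose, and without replicate 1 0 fell and 2 rose. Called genes that rose had a median length of 4585 bases and those that fell 3041 bases, against 2886 bases over all genes tested, and the rank correlation of fold change with length was 0.134 across genes. The part of length in the calls was examined by removing that trend, after which 1412 genes were called.

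The siRNA effect was also fitted in each treatment taken alone. The 3 DMSO pairs gave 779 called genes (4.87%) and the 3 1-AKP pairs 369 (2.31%), from libraries that are not shared. The fits do share passages and replicate numbers. Libraries of the same number deviated together across the treatments, with correlations across genes of 0.427, 0.0871 and 0.223 for Neg siRNA and 0.407, 0.0634 and 0.159 for siTUNAR. Agreement between the fits is therefore not that of independent experiments. Both fits called 258 genes, which is 33.1% of the DMSO calls and 69.9% of the 1-AKP calls. Of these, 257 had the same direction, 136 higher and 121 lower. The siRNA effect differed between treatments in 1 gene (0.00625% of those tested), while 522 had an unadjusted p under 0.05. That gene, the small RNA pseudogene RNU6-15P, had counts in 3 of 12 libraries and stood at 0 in the others. Without pairing edgeR called 0 such genes (170 at an unadjusted p under 0.05) and DESeq2 0 (49). Without replicate 1 the count was 14 and without replicate 3 it was 8.

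**Figure D5:**
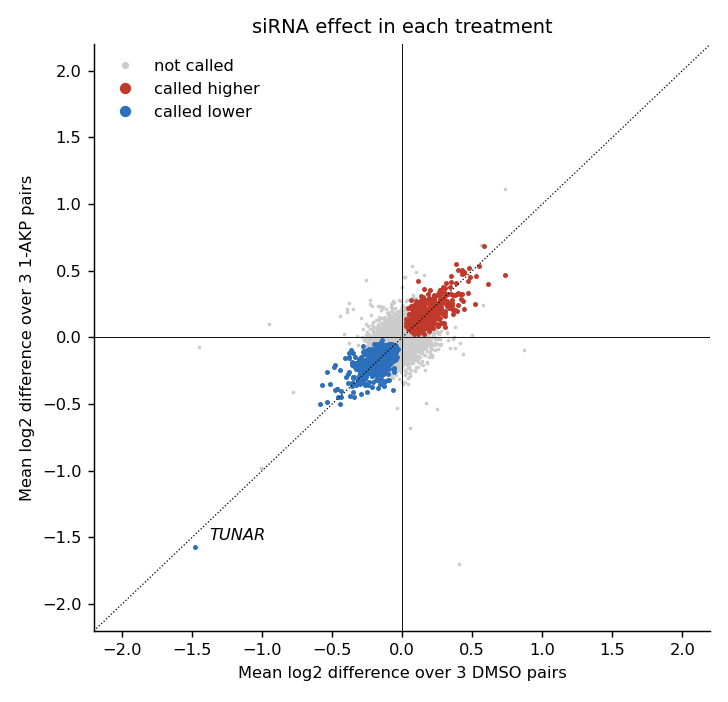
Mean log2 difference over the 3 DMSO pairs (horizontal axis) against that over the 3 1-AKP pairs (vertical axis) for 11131 genes, one point each, with genes called higher in red and lower in blue and the dotted line where both are equal. The 1401 called genes shown were called on the average of both axes, and the points of equal effect lie along the dotted line.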

How the data were processed

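RNA with poly(A) tails from 12 EndoC-βH1 samples was sequenced, and the labels state no strand marking. The deposited tables hold RSEM expected counts and FPKM values per gene, and BWA, Bowtie, RSEM and the build hg19 (GRCh37) are named per the submitters' processing notes, with no role or version given. The authors' deposited gene length served only for the length trend. Of 21508 identifiers, 21386 matched a RefSeq symbol table. Genes missing from a table were set to 0 and expected counts were rounded. Totals ran from 15653786 to 15986834 per library, so genes of a few CPM carry the larger errors.

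edgeR 4.0.16 in R 4.3.3 (TMM scaling, filterByExpr with a minimum count of 10 and total of 15) kept 15990 genes with 99.9% of counts. The robust quasi-likelihood fit had 6 pair blocks and siRNA (5 residual degrees of freedom), with Benjamini-Hochberg adjustment at 0.05. limma 3.58.1 on log2(FPKM + 0.1) and DESeq2 1.42.0 were alternatives, as were other scalings, filters and omissions, no pairing, 3 summed pairs and removal of the length trend. The fits were also run on simulated counts, with changes planted only in genes of higher counts. Those counts held no likeness of pair differences between treatments beyond the planted changes, so they do not cover that feature of the data. The pairing follows the treatment and replicate number of the labels, which give passage and nothing more of what a number marks. Paired libraries deviated together from their group means, with correlations from 0.162 to 0.416. Genes were named by a rule: TUNAR, then the 14 risen and 14 fallen of largest fold among genes called with the same sign in all 6 pairs whose mean level on the log2 CPM scale reached 1, up to 4 members of each list called with the same sign in all 6 pairs, taken by lowest p, and any gene called for a difference between treatments. TUNAR is itself counted among the 14 fallen. The 1 gene called for a difference between treatments, RNU6-15P, is reported but not counted among the 102 named genes. Loci without a descriptive name were passed over, 1 of them within the 14 risen and 1 within the 14 fallen of largest fold. The pairs, gene lists and rule were chosen with earlier results of these data known. Of 121 genes found in GENCODE, 33 overlap an exon of another gene on the opposite strand, so their levels may include its reads. No coordinates are given because the symbol table is of another build. Some list members are counted but not reported by name here.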

Additional observations from a re-analysis of the deposited data

Results flagged for a closer look

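In 3 of the 102 named genes, 1 pair stood apart from the other 5 by a gap above Dixon's 95% critical value for 6 values, where chance gives about 1 in 20. ITGBL1 had a log2 difference of 1.08 in the 1-AKP pair of replicate 2, where the nearest other pair was at 0.728. SYT4, which encodes a vesicle synaptotagmin, had its smallest difference, 0.0629, in the same pair, with the nearest at 0.147. BUB1B, a mitotic checkpoint kinase, was at 0.0171 in the 1-AKP pair of replicate 3, with the nearest at 0.0983. The siRNA effect on RNU6-15P differed between treatments by 12.4 on the log2 scale (edgeR adjusted p = 0.00018), with CPM of 0.750 and 0.934 in the Neg siRNA DMSO libraries of replicates 1 and 2, 1.84 in the siTUNAR 1-AKP library of replicate 3 and 0 in the other 9. As a fitted fold against libraries at 0 it is no measure of size.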

How the results depend on the processing

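The count of called genes, 1531 with the 6 pairs as blocks, was 1458 with an additive replicate block, 28 without pairing, 779 in the DMSO pairs alone, 369 in the 1-AKP pairs alone, 740 with DESeq2 and 807 with limma on log2 FPKM. It ran from 855 to 1448 when a pair or a replicate number was left out, 855 being without replicate 2. Library totals in place of TMM gave 708 up and 814 down, and limma 342 up and 465 down, against 799 and 732. The count of genes whose siRNA effect differed between treatments was 0 without the pair blocks and 0 with DESeq2, and ran from 1 to 14 without 1 replicate number. Of the 102 named genes, 5 kept their call under every setting that gave an adjusted p, and 38 did so under every such setting other than the one without pairing. No named gene reversed its direction, which the naming rule made nearly certain by requiring the same sign in all 6 pairs. RNU6-15P, called lower in the DMSO pairs alone and higher in the 1-AKP pairs alone, is not among the 102. DESeq2 gave no adjusted p for 26 of the 102. The cause of these shifts was not tested. At this depth, effects on genes near 1 CPM rest on few reads.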

Other observations

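Of 1520 lncRNA genes tested, 33 were called (2.17%, 15 up and 18 down), and of 13848 protein-coding genes 10.6% were called, a difference that was not tested. In the 6 pairs, the median difference of the called risen genes was 0.159, 0.134 and 0.123 in DMSO replicates 1, 2 and 3 and 0.184, 0.133 and 0.119 in 1-AKP. That of the called fallen genes was -0.181, -0.157 and -0.130 in DMSO and -0.186, -0.158 and -0.124 in 1-AKP. Of the called genes, 492 kept their call when each pair and each replicate number was left out in turn, 268 higher and 224 lower.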
